A study of Arabidopsis thaliana with 7 samples.

Results

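Root RNA of Arabidopsis thaliana hybridised under replicate number 2 was compared with root RNA hybridised under replicate number 1, across both lines and both treatments of the study. The comparison used all 7 of the 7 ATH1 arrays, 4 labelled replicate 2 and 3 labelled replicate 1, and asked which nuclear functions of the root differed between the replicate numbers. Wild type roots (stock N906, a line labelled as the control) were kept without dexamethasone or given 1 µM dexamethasone for 1 h, with 1 array per replicate number in each case. The line ANGR4-12, in the ecotype C24, carries a fusion of the MADS-box factor ANR1 to the rat glucocorticoid receptor (ANR1::rGR) behind the strong 35S promoter. Its untreated roots gave 1 array per replicate number, and its dexamethasone-treated roots gave 1 array, in replicate 2 only. All 7 arrays came from plants grown at 25 °C in 24 h light with 0.5% sucrose, deprived of nitrogen for 2 days and moved to fresh plates after 9 days, and each array holds 20 pooled plants. ANGR4-12 is a single line, and ANR1 is paired with no probe set in the annotation used, so the targeted gene could not be checked. The labels give only the replicate numbers. Separate growth, extraction, labelling and hybridisation therefore cannot be told apart, and each number stands for 1 instance. The p-values below measure the spread among arrays of 1 replicate number, which differ in line and treatment, and not the spread among growths.

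A root lays down cellulose, pectin, xyloglucan and structural glycoproteins in its growing cells, and stiffens older walls with peroxidases and lignin. It takes up nitrate, sulphate and iron, and starvation for each switches on its own transporters, assimilation enzymes or secreted coumarins. Crucifer roots also hold glucosinolates, beta-glucosidases that can break them, and inducible defence proteins such as chitinases, protease inhibitors and berberine bridge enzyme-like oxidases.

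Among 22746 probe sets other than controls, 10183 had a mean deposited signal of at least 50 over the 7 arrays and were tested, and 5254 of these are paired with 1 nuclear gene. The trimmed mean signal was 100.01 on every array. The 3'/5' signal ratio of the actin control, a measure of RNA integrity that rises as transcripts are truncated, was 0.528, 0.251 and 0.259 on the replicate 1 arrays of the untreated wild type, the treated wild type and the untreated ANGR4-12. On the replicate 2 arrays of the same groups it was 0.346, 0.876 and 1.587, and on the treated ANGR4-12 array it was 0.388. The replicate numbers overlap in this ratio, and in the untreated wild type it was lower in replicate 2. For GAPDH, whose replicate numbers did not overlap, the same ratio ran from 1.048 to 1.121 on the replicate 1 arrays and from 1.179 to 1.55 on those of replicate 2. The 25S ribosomal RNA control was likewise apart, at 5.2 to 10.5 under number 1 and 25.5 to 52.1 under number 2. The ubiquitin ratio did not overlap either, at 1.251 to 1.443 under number 1 and 1.485 to 2.19 under number 2. RNA quality therefore moves with the replicate number, and its part in the differences below was not tested apart from the refits named beside them. Refits without the 2 arrays of highest actin ratio keep replicate 2 arrays with GAPDH ratios of 1.264 and 1.179 and ubiquitin ratios of 1.765 and 1.485. These still exceed every replicate 1 array, so such refits do not remove the quality difference. Where a whole class of transcripts is lower in such bulk RNA, fewer cells of a type and less RNA per cell cannot be told apart.

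Nuclear genes moved in both directions in nearly equal numbers. Of the 5254 nuclear probe sets, 628 (12%) were higher and 631 (12%) were lower in replicate 2 at an adjusted p under 0.05 (limma, Benjamini-Hochberg over all 10183 probe sets). Over all tested probe sets, 1169 (11.5%) were higher and 1288 (12.6%) were lower. Most of these differences were small. Among the called nuclear probe sets, 38 were higher and 43 were lower by at least 1 on the log2(signal + 16) scale, and 7 were higher and 1 was lower by at least 2. The arrays of the replicate numbers did not overlap at 1708 probe sets that were higher in replicate 2 (16.8% of those tested) and at 2021 that were lower (19.8%). Centring each array on its median instead turned the counts to 1441 higher and 1017 lower, and shifted the median of all probe sets from -0.016 to 0.0349. The counts depended on which array was left out. Without the replicate 1 array of the treated wild type there were 514 higher and 521 lower. Without that of the untreated wild type there were 767 and 718, and without that of ANGR4-12 651 and 701. Without the replicate 2 array of the treated wild type there were 684 and 695, and without that of the untreated wild type 1177 and 1332. Leaving out the replicate 2 array of the untreated ANGR4-12 gave 1049 and 1199, and that of the treated ANGR4-12 1236 and 1403. Dropping a replicate 1 array also shrinks the smaller side, and this was not told apart from the influence of the array.

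The 3 groups present under both numbers mostly shared the direction. All 3 within-group differences had the same sign at 618 of the 628 nuclear probe sets called higher and at 626 of the 631 called lower, beside 5540 of 10183 (54.4%) over all tested probe sets. These called probe sets were chosen on the same arrays, so a held-out view was also taken. In the 4 wild type arrays alone, 559 probe sets (5.49%) were higher and 673 (6.61%) were lower at the same threshold. In the untreated ANGR4-12 arrays, which that fit did not use, 537 of the 559 (96.1%) and 641 of the 673 (95.2%) went the same way, beside 73.9% and 73.8% of all probe sets that were higher or lower in the wild type. The median difference of those called higher was 0.65 in the wild type and 0.65 in the ANGR4-12 pair, and of those called lower it was -0.67 and -0.71. A second view held out the treated ANGR4-12 array from calls made in the 3 shared groups. That array lay beyond all replicate 1 arrays at 1140 of 1236 called higher (92.2%) and 1288 of 1403 called lower (91.8%). It passed the midpoint between the replicate numbers at only 935 (75.6%) and 921 (65.6%). The same shares over all tested probe sets were not taken.

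**Figure D1:**
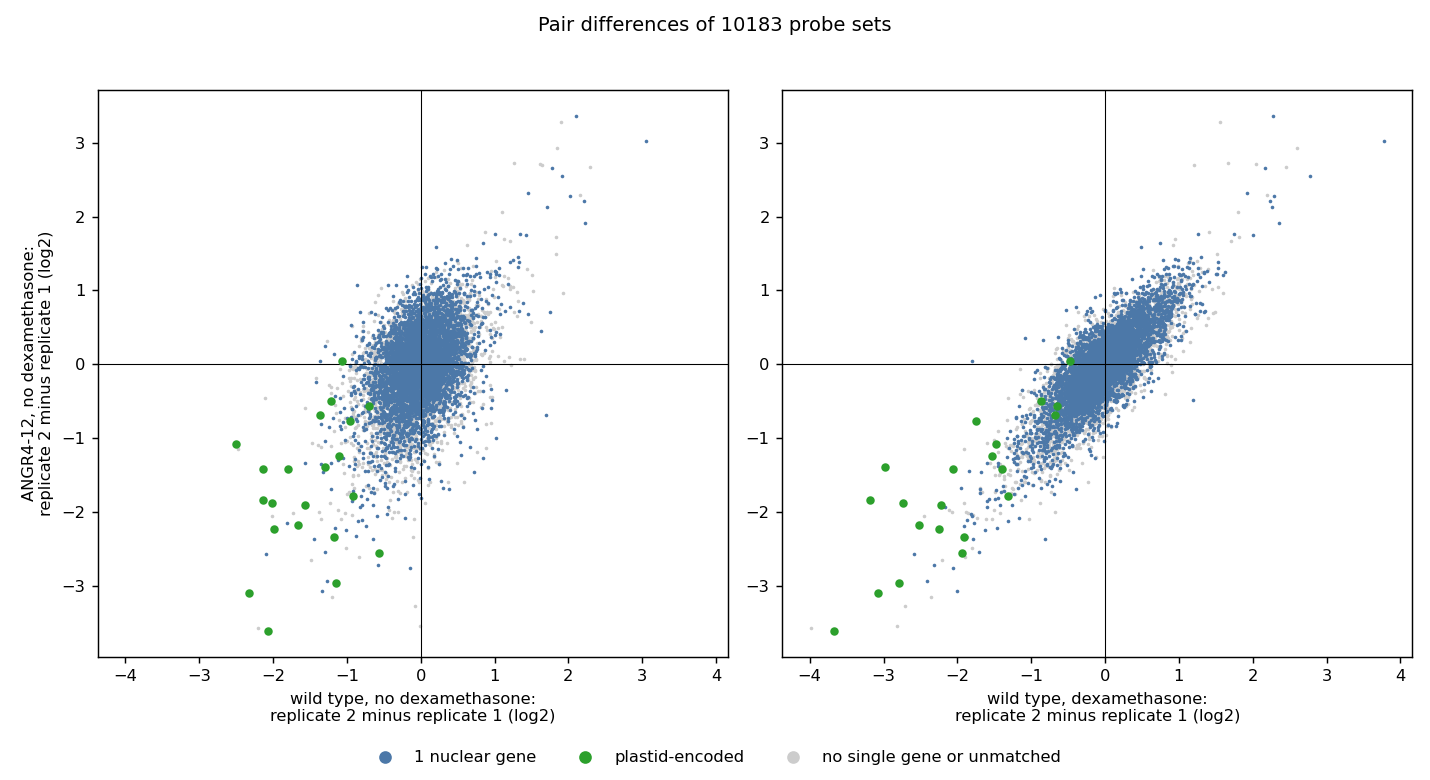
Each point is 1 of 10183 tested probe sets, and both axes give the replicate 2 minus replicate 1 difference in log2(signal + 16), 1 array against 1 array, in the groups named on the axes. The ANGR4-12 pair follows the treated wild type pair (Pearson r of 0.83 across probe sets) more closely than the untreated wild type pair (r of 0.47), and most plastid-encoded genes lie at the lower left.

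The size of the difference was unequal among the groups. In the untreated wild type 82 probe sets were higher and 87 were lower by at least 1, in the treated wild type 139 and 239, and in the untreated ANGR4-12 154 and 407. The median of the nuclear probe sets called higher was 0.38, 0.59 and 0.61 in the same order, and of those called lower -0.44, -0.56 and -0.60. The treated wild type and ANGR4-12 arrays of replicate 2 are also those with the actin ratios of 0.876 and 1.587. At 323 of the 631 nuclear probe sets called lower (51.2%), and at 381 of the 628 called higher (60.7%), these 2 arrays were the 2 most displaced of the 4, beside 27.9% and 30.4% over all nuclear probe sets tested. A fit to the other 5 arrays called 454 nuclear probe sets higher and 439 lower. Neither a difference of the replicate effect between the lines nor between the treatments was called at any probe set in limma's interaction fits (286 and 66 probe sets at an unadjusted p under 0.05, lowest adjusted p of 0.626 and 1). With 3 residual degrees of freedom these fits do not show that the groups responded alike.

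**Figure D2:**
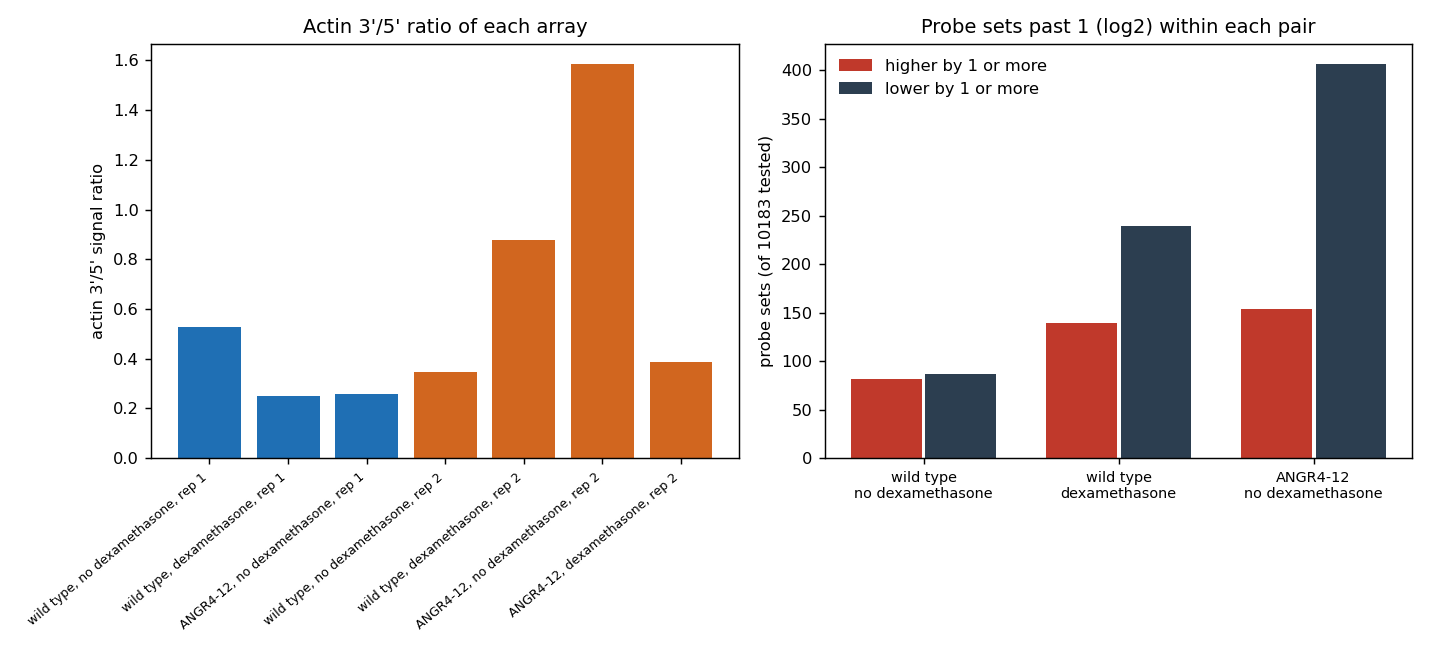
The left panel gives the actin 3'/5' signal ratio of each array, with replicate 1 in blue and replicate 2 in orange. The right panel counts the probe sets that differed by at least 1 (log2) between the 2 arrays of each shared group, from 82 and 87 in the untreated wild type to 154 and 407 in the untreated ANGR4-12.

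The largest increases reached levels far from the replicate 1 arrays in all groups. In each sentence below, replicate 1 values run in the order untreated wild type, treated wild type and untreated ANGR4-12, and replicate 2 values add the treated ANGR4-12 at the end. AT5G04120 read 18.4, 8.3 and 23.3 in replicate 1 and 268.3, 316.5, 302.6 and 303.7 in replicate 2, a log2 difference of 3.29 (SE 0.15, limma adjusted p 2.41e-06). AT3G28320 read 21.1, 20.9 and 23.9 against 156.5, 157.4, 168.4 and 176.5, a difference of 2.25 (SE 0.09, limma adjusted p 1.42e-06). The largest changes were ranked only among genes without overlap and with the same direction in the 3 shared groups. Neither property is therefore a result for these genes. Across the 4 replicate 2 arrays AT5G04120 read 268.3 to 316.5 and AT3G28320 read 156.5 to 176.5. Both read under 50 on all replicate 1 arrays, as did 5 of the 15 genes with the largest increases, and such a gene entered the test only through its replicate 2 signal. All 15 remained past the threshold in each of the 22 alternative fits, and 14 of them rose by at least 1 in each of the 3 shared groups. Over all tested probe sets, 42 (0.412%) rose and 48 (0.471%) fell by that much in each of the 3. The 15th, ChiC, rose by 1.75 in the untreated wild type, 1.34 in the treated wild type and 0.70 in ANGR4-12.

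**Figure D3:**
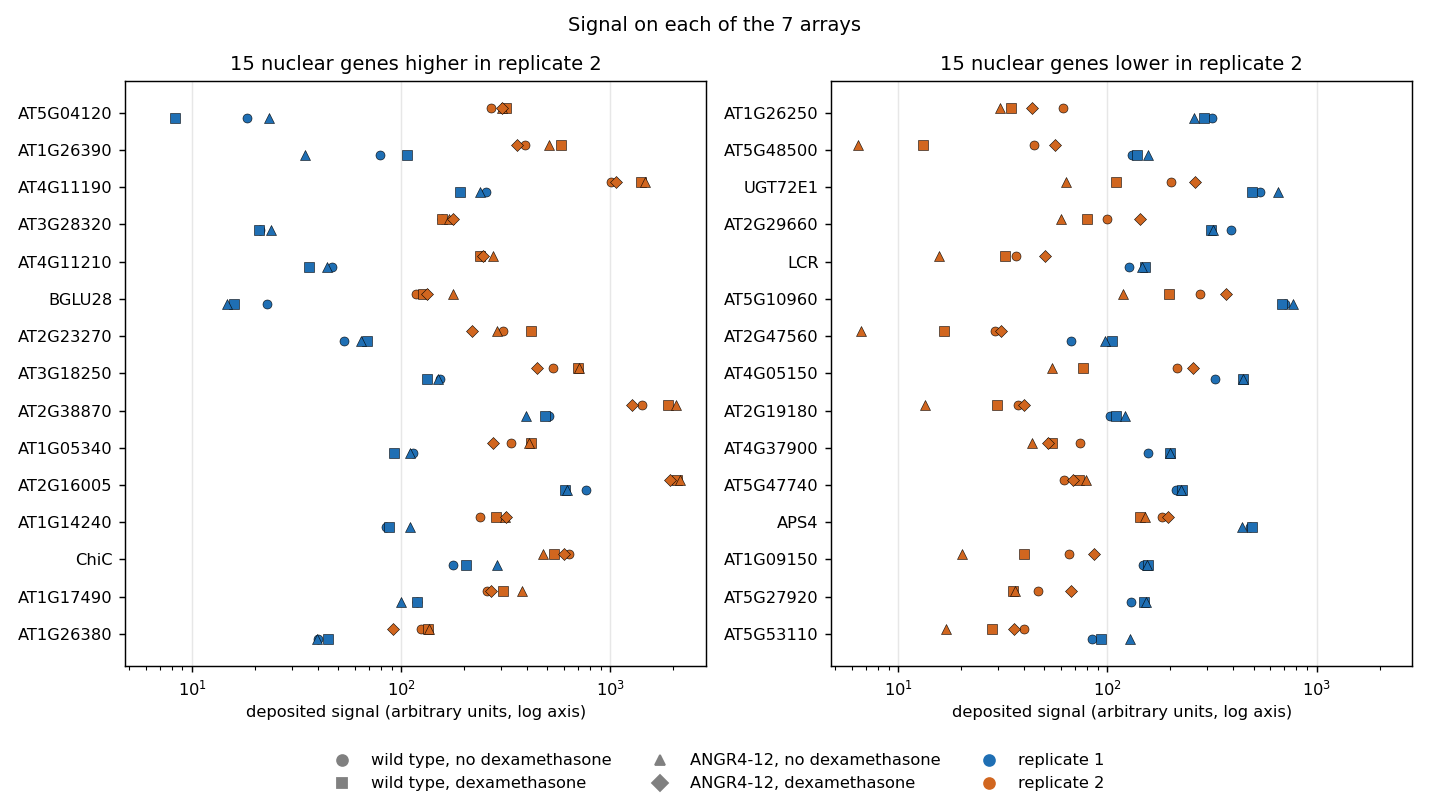
Signals of the 15 nuclear genes with the largest increase (left) and the 15 with the largest decrease (right) on a log axis, 1 point per array, in blue for replicate 1 and orange for replicate 2, with the marker giving line and treatment. The replicate numbers do not overlap for any of the 30, which the choice of these genes required. Among the decreases the untreated ANGR4-12 array of replicate 2 is the lowest for 12 of 15, beside 29.9% of all nuclear probe sets tested.

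Cell wall genes moved in both directions. Of 101 tested nuclear probe sets under this heading, 17 were higher and 12 were lower, with a median difference of 0.007 beside -0.007 over all nuclear probe sets. Those shares, read against the 12% in each direction among all nuclear probe sets, do not set the heading apart. Single families lay further from 0: the median of 9 expansins was -0.22, running from 0.38 in the untreated wild type pair to -0.74 in the ANGR4-12 pair, and the medians of 7 xyloglucan endotransglucosylases and 5 cellulose synthase and related proteins were 0.20 and 0.17. Without the 2 arrays of high actin ratio the expansin median changed sign to 0.09, with 2 higher and 1 lower. The medians of the other 2 families were then 0.17 and 0.23.

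Within the wall, the proline-rich extensin-like gene AT1G26250 fell the most of all nuclear genes. Its signal was 315.3, 288.1 and 260.1 in replicate 1 and 61.6, 34.7, 30.7 and 43.5 in replicate 2, a log2 difference of -2.40 (SE 0.16, limma adjusted p 3.75e-05). Every replicate 1 value lay far above every replicate 2 value. A further 2 of the 9 structural wall proteins rose slightly, AT3G28550 by 0.40 and HRGP1 by 0.38, the last on a probe set that may read related sequences. Among 9 expansins, proteins that loosen growing walls, EXLB1 rose from 94.4, 112.8 and 136.7 to 199.3, 251.7, 276.8 and 205.0 (log2 0.93, SE 0.14). EXPA7, the expansin of root hairs, fell from 112.6, 127.6 and 126.6 to 65.0, 38.2, 27.0 and 86.6 (log2 -1.06, SE 0.25, limma adjusted p 0.0149). EXPA7 was lowest on the 2 arrays of high actin ratio, and its difference was -0.60 without them. EXPA18, another expansin of root hairs, differed by 0.40 and did not pass (limma adjusted p 0.105).

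Class III peroxidases, secreted enzymes that cross-link or loosen walls, formed the largest family tested. Of 34 probe sets, 7 were higher and 5 were lower, with a median of 0.002, beside 12% in each direction over all nuclear probe sets. Without the 2 arrays of high actin ratio 4 were higher and 3 lower. AT5G64120 (peroxidase 71) read 1085, 1411 and 1150 in replicate 1 and 639.3, 519.2, 411.7 and 697.1 in replicate 2, a difference of -1.10 (SE 0.17). AT2G41480 (peroxidase 25) read 313.4, 308.3 and 343.5 against 135.3, 181.4, 131.0 and 141.0, a difference of -1.06 (SE 0.12). The increases were smaller, led by AT4G11290 (0.68), AT3G21770 (0.61) and AT1G14550 (0.57), the last of which lost its call without the high-ratio arrays (limma adjusted p 0.112). The decrease of AT2G39040 (-0.63) lost it too (-0.33, limma adjusted p 0.0813).

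Pectin-modifying enzymes were spread the same way, with 2 of 25 higher and 3 lower, beside 12% in each direction over all nuclear probe sets. The largest was the pectin methylesterase AT5G09760, which fell from 444.4, 453.7 and 466.0 to 238.6, 190.6, 214.4 and 297.0 (log2 -0.92, SE 0.13). AT1G02810 fell by 0.50 and AT5G19730 fell by 0.44, while AT3G09405 rose by 0.52 and AT3G49220 by 0.30. AT5G19730 and AT3G49220 lost their call when the group was added to the fit (limma adjusted p 0.0565 and 0.176). One of 7 xyloglucan endotransglucosylases rose (EXGT-A3, 0.46) and 1 of 5 cellulose synthase and related proteins rose (CSLD2, 0.29), and both lost their call in the same fit (limma adjusted p 0.0648 and 0.0846).

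Genes of the lignin and lignan branch gave larger differences at few members. Of 12 tested laccases, dirigent proteins and monolignol enzymes, 3 rose and 2 fell, beside 12% in each direction over all nuclear probe sets. Dirigent proteins steer the coupling of monolignol radicals, and a pair of neighbouring members rose steeply. AT4G11190 read 253.3, 190.8 and 238.4 in replicate 1 and 1001, 1396, 1467 and 1066 in replicate 2 (log2 2.35, SE 0.15, limma adjusted p 2.77e-05). AT4G11210 read 46.8, 36.3 and 44.1 against 239.9, 238.9, 275.8 and 247.1 (log2 2.19, SE 0.10, limma adjusted p 2.41e-06). Such close copies may share probes' targets, so the 2 values are not counted as independent. AT4G11210, under 50 on every replicate 1 array, entered the test only through its replicate 2 signal. The member AT2G21100 rose by 0.66 and the member AT1G55210 fell by 0.40, and the other 4 of the 8 tested dirigent genes did not pass. UGT72E1, which glucosylates monolignol precursors such as coniferyl aldehyde, went the other way. It read 533.7, 488.7 and 655.2 in replicate 1 and 201.2, 110.0, 63.7 and 262.2 in replicate 2 (log2 -1.86, SE 0.35, limma adjusted p 0.0058). The lowest values were again those of the high-ratio arrays, without which the difference was -1.22.

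Defence genes included some of the largest increases together with decreases of abundant chitinases. Under the stress heading 8 of 36 probe sets were higher and 10 were lower, beside 12% in each direction over all nuclear probe sets, with a median of -0.003. The 13 pathogenesis-related, defensin, protease inhibitor and chitinase probe sets among them held 4 of the increases and 3 of the decreases. AT2G38870, a protease inhibitor of the potato inhibitor I type, read 510.4, 484.9 and 396.0 in replicate 1 and 1419, 1888, 2047 and 1266 in replicate 2 (log2 1.78, SE 0.17, limma adjusted p 0.00025). ChiC, a class V chitinase, read 176.5, 203.2 and 286.7 against 631.9, 537.9, 476.0 and 602.1 (log2 1.30, SE 0.16). PDF2.1, a defensin, rose by 0.82 (SE 0.18). The arrays of the replicate numbers did not overlap for PDF2.1. For AT2G38870 and ChiC this was a condition of their place among the largest increases. The neighbouring chitinase genes AT2G43610, AT2G43590 and AT2G43570 (CHI) went down, by -0.76, -0.60 and -0.52 on the log2 scale. AT2G43590 was among the brightest of them, at 2211, 2291 and 2273 in replicate 1 and 1714, 1686, 1166 and 1427 in replicate 2. CHI lost its call without the high-ratio arrays (limma adjusted p 0.0791). AT2G43580, a tested gene of the same cluster, differed by -0.07 and did not pass (limma adjusted p 0.824). Its difference was 0.19 without the high-ratio arrays.

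Berberine bridge enzyme-like oxidases, a family with members that act on wall oligosaccharides and indolic defence compounds, rose at 6 of 9 tested probe sets, with none lower and a median of 0.47, beside 12% in each direction over all nuclear probe sets. AT1G26390 read 79.2, 106.3 and 34.8 in replicate 1 and 391.2, 577.3, 506.4 and 356.4 in replicate 2 (log2 2.47, SE 0.27, limma adjusted p 0.00052). Its neighbour AT1G26380 read 40.0, 44.9 and 39.7 against 124.0, 134.0, 136.4 and 90.9 (log2 1.24, SE 0.13), and AT5G44400 rose by 1.13. AT1G26380, AT5G44400 and AT1G26420, which was also called higher, read under 50 on every replicate 1 array. Such genes entered the test only through replicate 2 and could pass only as increases, so 6 of 9 cannot be read against the 12%. Major latex protein-like genes, small ligand-binding proteins of the Bet v I fold, were higher at 5 of 9, with none lower and a median of 0.56, and without the high-ratio arrays 5 were higher and 1 lower. AT4G14060 led them at 1.09, AT3G26460 rose by 0.81 and AT1G14960 by 0.74. AT4G14060 too read under 50 on every replicate 1 array. Among SABATH methyltransferases, which methylate small carboxylic acids, 3 of 3 were higher, by 1.22 (AT5G38020), 1.10 (AT5G37990) and 0.53 (NAMT1). The neighbours AT5G38020 and AT5G37990 are related in sequence, and NAMT1 overlapped between the replicate numbers and lost its call without the high-ratio arrays (limma adjusted p 0.0784). Of 3 germin-like proteins 2 were higher, AT5G38910 by 1.10 and AT3G10080 by 0.59. These 4 families and the dirigent family were singled out after the values of their leading members had been seen, so their counts are descriptions and not evidence that the families stand apart.

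Other stress lists were small and mixed, and their counts stand beside 12% called in each direction over all nuclear probe sets. Of 4 heat shock genes, AT3G09440 of the HSP70 class rose from 519.6, 483.5 and 475.7 to 812.0, 779.1, 823.4 and 880.0 (log2 0.72, SE 0.08), Hsp70-2 rose by 0.29 and the small heat shock gene AT2G29500 fell by 0.55. Hsp70-2 lost its call when the group was added and without the high-ratio arrays (limma adjusted p 0.0986 and 0.0852). Among 7 cold, drought and late embryogenesis genes, SRC2, named after a cold-regulated gene of soybean, read 1308, 1410 and 1416 in replicate 1 and 787.2, 461.9, 388.9 and 901.7 in replicate 2 (log2 -1.18, SE 0.25). The dehydrin AT1G54410 fell by 0.52, with its call lost when the group was added (limma adjusted p 0.0885), and AT2G46140 rose by 0.49. Of 5 WRKY transcription factors 2 were lower, WRKY22 by -0.98 and WRKY6 by -0.75, and both are regulators of defence or senescence genes. WRKY22 read 155.2, 185.9 and 203.7 against 100.4, 75.6, 58.0 and 109.8. SRC2, WRKY22 and WRKY6 were all lowest on the untreated ANGR4-12 array of replicate 2, and without the high-ratio arrays their differences were -0.70, -0.70 and -0.43. Of 4 antioxidant enzymes PRXIIF rose by 0.42, or 0.30 without the high-ratio arrays (limma adjusted p 0.0516), and CCS, the copper chaperone of superoxide dismutase, fell by 0.64. MYC4, a jasmonate-responsive factor, fell by 0.29 and was 1 of 2 jasmonate genes tested, and its call was lost when the group was added (limma adjusted p 0.141). The only tested fermentation gene, PDC2, differed by -0.10 (limma adjusted p 0.454).

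**Figure D4:**
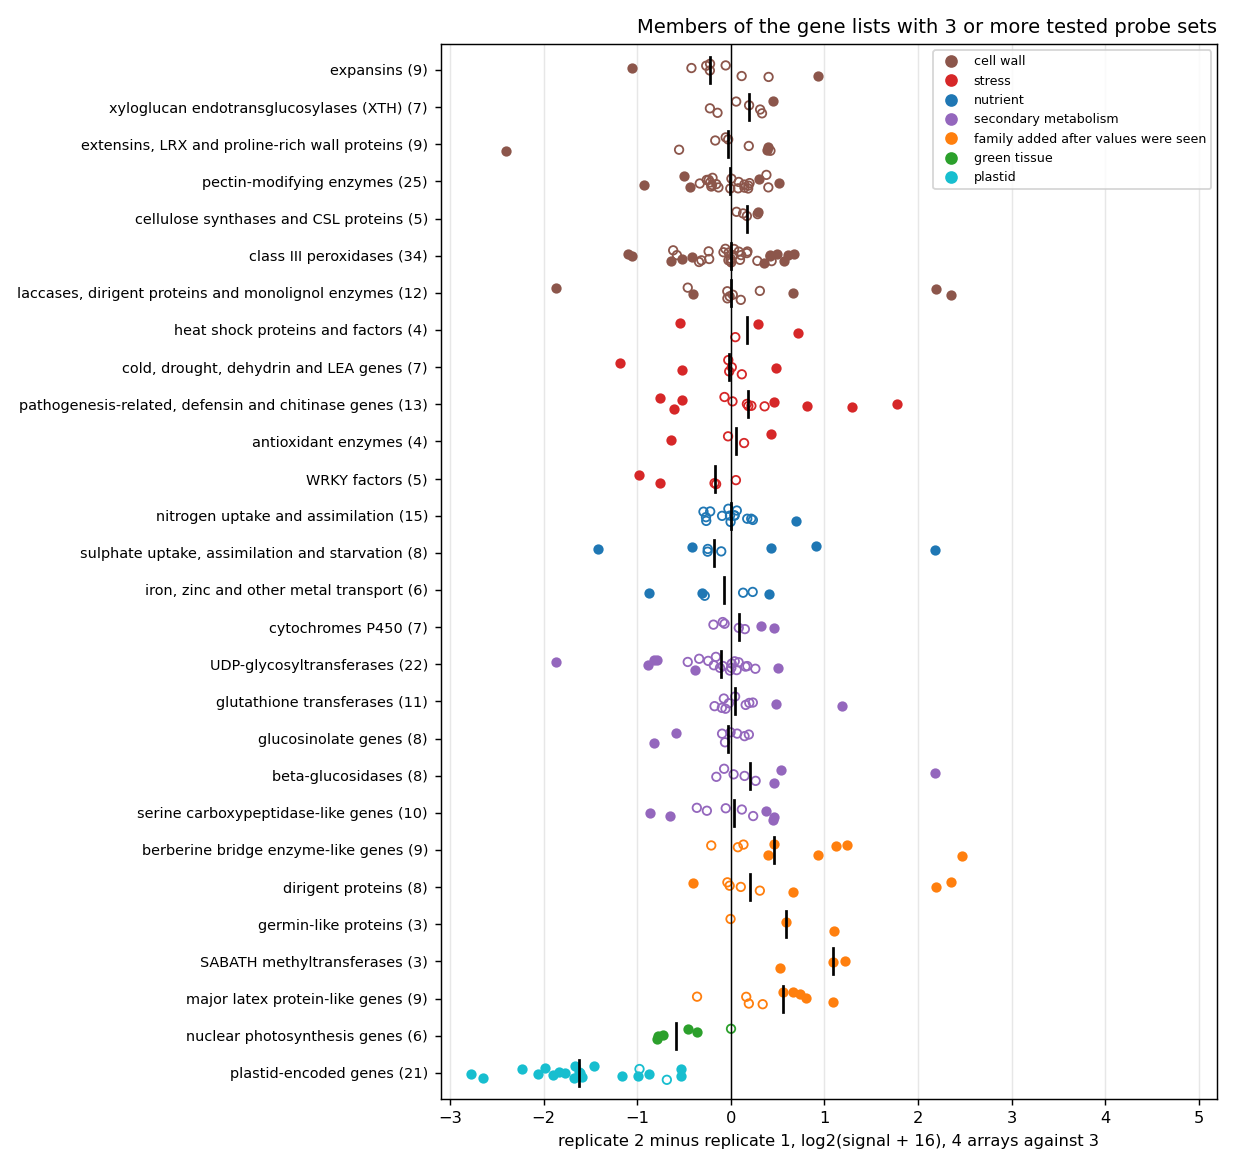
Each point is a tested probe set of the gene list named at the left (number tested in brackets), placed by its replicate 2 minus replicate 1 difference over 4 and 3 arrays. Filled points have an adjusted p under 0.05, black bars are list medians, and most lists straddle 0 while the plastid-encoded genes (median -1.62) and nuclear photosynthesis genes (median -0.59) lie below it.

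Sulphur genes moved in opposite directions within the pathway. Of 8 tested genes listed under sulphate uptake, assimilation and starvation, 3 were higher and 2 were lower, with a median of -0.17. Over all nuclear probe sets 12% were called in each direction. BGLU28, counted among the increases, entered the test only through its replicate 2 signal and could pass only as an increase. The 8 include APK1A, a protein kinase outside the pathway that was matched by its symbol. It differed by -0.10 and did not pass (limma adjusted p 0.411). APS4, an ATP sulfurylase that activates sulphate, read 482.6, 493.0 and 441.7 in replicate 1 and 182.6, 142.7, 150.6 and 194.6 in replicate 2 (log2 -1.42, SE 0.12, limma adjusted p 0.000121). SIR, the plastid sulphite reductase further down the pathway, read 482.4, 502.1 and 470.8 against 747.5, 637.5, 603.8 and 651.7 (log2 0.43, SE 0.09, limma adjusted p 0.0103). SIR did not overlap between the replicate numbers, and for APS4 this was a condition of its place among the largest decreases. The difference of APS4 was -1.25 without the high-ratio arrays, which were its 2 lowest. APS3, a second ATP sulfurylase, differed by -0.25 (limma adjusted p 0.112).

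BGLU28, a beta-glucosidase known from sulphur starvation, when it is thought to release sulphur from glucosinolates, was near the floor in replicate 1. It read 22.9, 15.8 and 14.7 there and 117.8, 126.7, 177.0 and 132.1 in replicate 2 (log2 2.18, SE 0.14, limma adjusted p 2.77e-05). STR18, a sulfurtransferase, rose from 149.2, 151.2 and 223.9 to 274.5, 328.9, 428.5 and 336.2 (log2 0.91, SE 0.17). AT1G04770, a member of the family of genes induced by sulphur deficiency, fell by 0.41 and lost its call in the fit with the group (limma adjusted p 0.115). Among all 8 tested beta-glucosidases, BGLU28, BGLU25 (0.54) and BGLU15 (0.47) were higher and none was lower, beside 12% in each direction over all nuclear probe sets. BGLU28 read under 50 on every replicate 1 array. It entered the test only through replicate 2 and could pass only as an increase, so this count cannot be read against the 12%. BGLU25 lost its call when the group was added (limma adjusted p 0.0525). BGLU15 and BGLU28 are neighbours, and their levels in replicate 1 were far apart, at 619.4 to 653.5 for BGLU15.

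The 15 tested genes listed under nitrogen uptake and assimilation were mostly members of the NRT1/PTR family of transporters. Ammonium transport and nitrogen assimilation were therefore hardly covered. Among the 15, 1 was higher and none lower, with a median of -0.002. This was AT3G45680, a member of the NRT1/PTR family of transporters, which read 65.8, 74.9 and 106.8 in replicate 1 and 149.4, 126.4, 149.9 and 140.9 in replicate 2 (log2 0.70, SE 0.14). Among 6 genes of iron, zinc and other metals, 2 enzymes of coumarin synthesis, which roots use to mobilise iron, went apart. AT3G13610 (F6'H1), which makes scopoletin's precursor, rose from 1108, 1090 and 890.0 to 1547, 1529, 1186 and 1247 (log2 0.41, SE 0.12). AT3G12900, the scopoletin 8-hydroxylase, fell from 97.7, 67.7 and 55.5 to 37.9, 33.6, 22.9 and 35.1 (log2 -0.87, SE 0.17). ZIP6, a ZIP family metal transporter, fell by 0.31 and lost its call without the high-ratio arrays (limma adjusted p 0.0696). In all, the nutrient heading held 5 increases and 4 decreases among 29 probe sets, with a median of -0.009, beside 12% in each direction over all nuclear probe sets. Without the high-ratio arrays there were 5 increases and 2 decreases.

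Genes of secondary metabolism moved in both directions. Of 67 probe sets 12 were higher and 8 were lower, with a median of -0.002, beside 12% in each direction over all nuclear probe sets. Among 22 UDP-glycosyltransferases, 5 were lower and 1 was higher, with a median of -0.10. Without the high-ratio arrays 4 were higher and 4 lower, with a median of -0.03. Beside UGT72E1, the decreases were UGT87A2 (-0.88), UGT74B1 (-0.82), UGT73B1 (-0.79) and UGT73B4 (-0.39, with its call lost without the high-ratio arrays at a limma adjusted p of 0.0696). The increase was UGT76B1 (0.50), which glucosylates isoleucic acid. UGT74B1 makes the desulphoglucosinolate of the glucosinolate core pathway, and read 699.8, 786.2 and 665.5 in replicate 1 and 456.9, 410.9, 328.0 and 413.9 in replicate 2. BCAT4, the aminotransferase that opens methionine chain elongation for aliphatic glucosinolates, fell by 0.59 and lost its call when the group was added (limma adjusted p 0.0511). These were the 2 lower members of 8 tested glucosinolate genes, none of which was higher, and the median of the 8 was -0.03.

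Of 11 glutathione transferases 2 were higher, beside 12% in each direction over all nuclear probe sets. GSTU28 read 79.5, 60.9 and 78.1 in replicate 1 and 183.6, 215.5, 201.3 and 148.1 in replicate 2 (log2 1.19, SE 0.13, limma adjusted p 0.00059), and GSTU22 rose by 0.48, or by 0.29 with its call lost without the high-ratio arrays (limma adjusted p 0.0811). CHIL, a chalcone isomerase-like protein of flavonoid synthesis, read 290.1, 311.1 and 243.9 against 568.7, 641.5, 588.0 and 529.7 (log2 1.01, SE 0.11, limma adjusted p 0.00044). It was 1 of 2 phenylpropanoid and flavonoid genes tested, and its 7 values did not overlap. Of 7 cytochromes P450, CYP71B37 rose by 0.46 and CYP71B23 by 0.32, and neither passed without the high-ratio arrays (limma adjusted p 0.103 and 0.132). Serine carboxypeptidase-like genes, some of which are acyltransferases of secondary metabolites, had 3 higher and 2 lower of 10, and 3 and 1 without the high-ratio arrays, where scpl35 lost its call (limma adjusted p 0.0791). SCPL34 fell by 0.87, from 255.9, 232.9 and 241.4 to 129.8, 108.6, 119.3 and 149.6. The tested suberin gene FACT differed by -0.18 (limma adjusted p 0.242).

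The remaining large increases belonged to genes outside these lists. AT2G23270 rose by 2.02, AT3G18250 by 1.90, AT1G05340 by 1.61, AT2G16005 by 1.60, AT1G14240 by 1.46 and AT1G17490 by 1.29. AT2G16005, a protein with a lipid-recognition domain, was among the brightest, at 765.3, 607.2 and 618.8 in replicate 1 and 1965, 2070, 2146 and 1934 in replicate 2. AT1G14240 belongs to the apyrase family of nucleotide phosphatases and read 85.0, 87.8 and 110.2 against 238.5, 282.9, 313.1 and 315.1. AT1G05340 encodes a small cysteine-rich transmembrane protein of a stress-responsive class. The absence of overlap between the replicate numbers was a condition for the choice of these 6 genes.

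**Figure D5:**
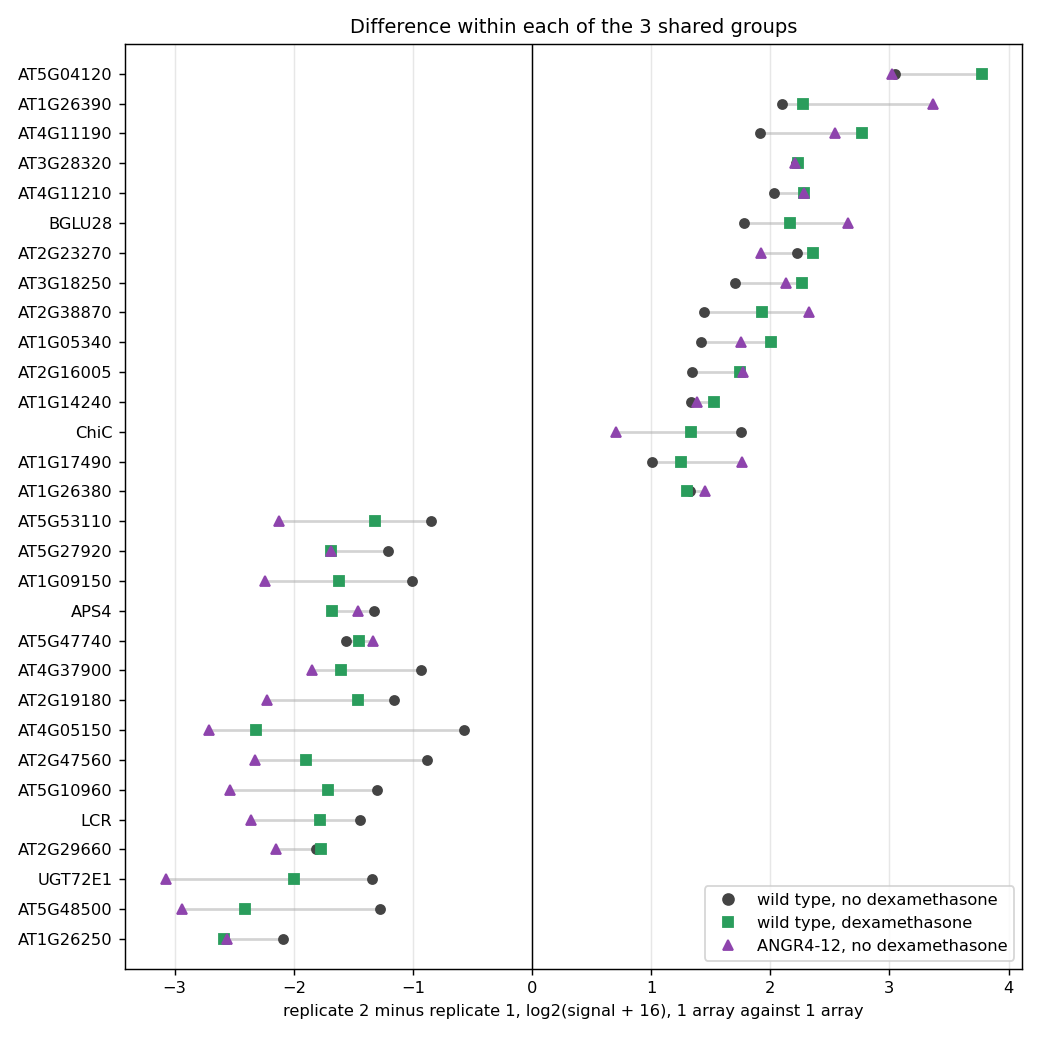
The replicate 2 minus replicate 1 difference of the 30 genes with the largest changes in each shared group, on the log2(signal + 16) scale, 1 array against 1 array, with a grey line spanning the 3 groups. Every point lies on the side of its gene's overall difference, which the choice of these genes required. Among the decreases the untreated wild type is mostly nearest to 0.

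Several other large decreases followed a common order among the replicate 2 arrays. LCR, an F-box protein of ubiquitin ligases named for its leaf curling phenotype, read 127.3, 150.5 and 146.8 in replicate 1 and 36.7, 32.4, 15.7 and 50.2 in replicate 2 (log2 -1.71, SE 0.20, limma adjusted p 0.00084). AT5G10960, of the CAF1 family that shortens poly(A) tails, read 704.2, 681.2 and 768.0 against 276.2, 197.3, 119.1 and 369.7 (log2 -1.62, SE 0.28, limma adjusted p 0.0042). AT5G48500 read 130.6, 138.2 and 155.7 against 44.6, 13.1, 6.4 and 56.2 (log2 -1.94, SE 0.35). In each of the 3 the untreated ANGR4-12 array was lowest and the treated wild type array next.

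The same 2 arrays were the 2 lowest for 13 of the 15 genes with the largest decreases, and for 35 of the 43 nuclear probe sets lower by at least 1. Over all nuclear probe sets tested this share was 27.9%. They were the 2 highest for 8 of the 15 largest increases and for 21 of 38 higher by at least 1, beside 30.4%. These genes were chosen by the size of their difference on the same arrays. The 2 exceptions among the 15 largest decreases were AT4G37900 and AT5G47740. AT5G47740 read 213.5, 227.6 and 223.5 in replicate 1 and 61.7, 72.9, 79.1 and 68.2 in replicate 2 (log2 -1.46, SE 0.09), and its difference was -1.55 without the high-ratio arrays. All 15 genes kept their call without those arrays, but the differences of AT5G48500, AT4G05150 and AT1G09150 shrank to -1.25, -0.74 and -0.89. AT4G05150 was the 1 of 15 to lose it elsewhere, with a limma adjusted p of up to 0.091 over the alternatives, and its decrease ran from -0.57 in the untreated wild type to -2.71 in ANGR4-12. The other 9 of the 15 were AT2G29660 (-1.72), AT2G47560 (-1.57), AT2G19180 (-1.50), AT4G37900 (-1.48), AT1G09150 (-1.40), AT5G27920 (-1.38) and AT5G53110 (-1.37), together with UGT72E1 and APS4 above.

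Nuclear photosynthesis genes and plastid-encoded genes were mostly lower in replicate 2. Of 6 tested nuclear photosynthesis genes 5 were lower and none was higher, with a median of -0.59, beside 12% lower among all nuclear probe sets. Without the high-ratio arrays 3 were lower, with a median of -0.52, as ATPC1 and LHCB4.1 no longer passed (limma adjusted p 0.062 and 0.125). RCA, rubisco activase, read 229.9, 234.6 and 210.7 in replicate 1 and 121.1, 103.6, 124.4 and 145.9 in replicate 2 (log2 -0.79, SE 0.11). PSBY and PSBW, small subunits of photosystem II, fell by 0.78 and by 0.72. PSBW read 204.1 on the untreated wild type array of replicate 1 and 99.7 and 106.4 on the others, and it lost its call when the group was added (limma adjusted p 0.0969). Of 21 plastid-encoded genes 19 were lower and none was higher, with a median of -1.62, and without the high-ratio arrays the count was also 19 and the median -1.38. The largest were atpB (-2.78) and atpE (-2.65), subunits of the plastid ATP synthase, and matK (-2.23). Among 3 tested mitochondrion-encoded probe sets, ccb382 fell from a mean of 215.9 to 40.9 (log2 -2.04, SE 0.16), cox1 rose by 0.60 and ccb452 differed by 0.07 (limma adjusted p 0.655). The part of green cells or organelle RNA in the nuclear differences was not tested.

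Few markers of root cell types passed the test. Of 4 root hair markers EXPA7 was lower and the other 3 did not pass. The xylem genes GUT2 (-0.25, limma adjusted p 0.311) and IRX15-L (-0.17, limma adjusted p 0.41) did not pass. PYK10, the abundant beta-glucosidase of root endoplasmic reticulum bodies, read 2797, 2674 and 2673 in replicate 1 and 3112, 3148, 3116 and 2678 in replicate 2 (log2 0.15, limma adjusted p 0.18), so this root marker was bright on every array. Among 7 histone and cell cycle genes, 3 were higher (HIS1-3 by 0.63, HTB4 by 0.49, HTB11 by 0.48) and 2 lower (HTB1 by -0.49 and PRL by -0.45). Over all nuclear probe sets 12% were called in each direction. HTB4, HTB11 and HTB1 all encode histone H2B, and HTB1 and PRL overlapped between the replicate numbers. Without the high-ratio arrays only HTB11 passed, so that 1 was higher and none lower. The ribosomal protein gene PGY1 (0.16, limma adjusted p 0.333) did not pass. The clock gene GI did not pass (0.21, limma adjusted p 0.418), but it was called higher without the high-ratio arrays (0.49, limma adjusted p 0.0357) and with the actin ratio as a term (0.51, limma adjusted p 0.0186). No tested probe set was paired with a listed marker of endodermis, root cap or phloem.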

How the data were processed

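The deposited values are signal intensities of 22810 probe sets on each of 7 one-colour ATH1 arrays, scaled by the authors to an equal trimmed mean, as the values show; which software made them is not given in the sources used here. Tests left out the 64 control probe sets, and probe sets with a mean signal of at least 50 were kept. Values were taken as log2(signal + 16) and fitted with limma 3.58.1 in R 4.3.3 (lmFit, then eBayes with a variance trend), with the replicate number as the only term and Benjamini-Hochberg adjustment over all 10183 tested probe sets, threshold 0.05. The number of arrays limits the precision. All array columns could be mapped to a sample.

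Probe sets were named through the platform annotation, updated through RefSeq TAIR10.1 gene identifiers: 5254 tested probe sets have 1 nuclear gene, 21 a plastid gene, 15 an unmatched one and 4893 no single gene, so every gene list is partial. Families of genes known only by locus were assigned from general knowledge of Arabidopsis.

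The comparison and the gene lists were chosen with earlier results of these data known. The loci of each list were drawn up after values had been displayed, and the berberine bridge enzyme-like, dirigent, germin-like, SABATH and major latex protein-like families were added after leading members had been seen. Lists are described by counts and medians, with no test. Named genes are the 15 largest increases and 15 largest decreases among called, non-overlapping nuclear genes with the same sign in the 3 shared groups (1227 probe sets were eligible), up to 3 called members per direction of each list (2 members where none was called), and the 3 lowest p-values of each interaction. UGT73B1, UGT73B4, APS3, EXPA18, ATPC1 and LHCB4.1 were added to complete the account of their families after their values were seen. Arabinogalactan, phosphate, terpene, ERF and DREB, aquaporin and potassium lists had 0 tested members. Alternatives covered normalization, pseudocount, filter, added terms and left-out arrays.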

Additional observations from a re-analysis of the deposited data

Results flagged for a closer look

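Among 109 called named genes, 4 had 1 replicate 2 array whose gap to its nearest neighbour took up more of the range of the 4 arrays than Dixon's 95% critical value, and chance alone marks about 1 in 20 groups. The serine carboxypeptidase-like gene scpl29 read 609.7 on the untreated ANGR4-12 array and 544.7 to 550.7 on the others (share 0.903). PSBY read 72.8 on the untreated wild type array and 58.2 to 59.9 on the others (share 0.874). The germin-like gene AT3G10080 read 176.9 on the treated wild type array and 164.6 to 165.9 on the others (share 0.891). AT5G37990 read 165.1 on the same array and 121.2 to 126.7 on the others (share 0.858). All 4 arrays of each gene lay on the same side of the replicate 1 arrays.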

How the results depend on the processing

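No named gene reversed its direction while called, and 68 of 109 called named genes remained past the threshold under all 22 alternatives. Against 1169 higher and 1288 lower probe sets, the fit with a term for the group, which is the analysis paired by group and has 2 residual degrees of freedom, gave 769 and 934, with additive terms for line and dexamethasone 573 and 594, and in the wild type arrays alone 559 and 673. Leaving out 1 array at a time gave 514 to 1236 higher and 521 to 1403 lower, the lowest without the treated wild type array of replicate 1. A mean signal of at least 100 left 907 and 802 among 6431 probe sets, where 3598 (55.9%) had the same direction in the 3 pairs. Without a filter that number was 9772 of 22746 (43%), beside 5540 of 10183. Median centring moved the share of increases among calls from 47.6% to 58.6%. Without the 2 arrays of highest actin ratio the counts were 892 and 922, and with the ratio as a term 944 and 983. With the replicate number as the block, no paired analysis was possible because that number is itself the compared term. The interaction fits called 0 probe sets under each alternative run. Signals near the floor, under 50 on every array of 1 replicate number, limit the size given for 40 of the nuclear genes called higher and 31 of those called lower.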

Other observations

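The interaction fits ranked 3 genes first for each contrast, and none passed the adjustment. For the difference between the lines they were AT1G52820, AT2G15560 and GAT1_2.1. AT2G15560 read 165.9 and 220.3 on the wild type arrays of replicate 1, 38.3 on the ANGR4-12 array of replicate 1, and 39.9 to 54.4 on the 4 arrays of replicate 2. GAT1_2.1, a glutamine amidotransferase, read 66.5 and 59.8 in the wild type and 31.1 in ANGR4-12 in replicate 1, and no higher than 50.1 in the wild type in replicate 2, where the untreated ANGR4-12 read 64.5. For the difference between treatments they were HLL, AT1G60080 and AT4G34660.

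Among the tested probe sets whose gene could not be matched to the current annotation, RALFL22, a secreted signalling peptide of the RALF family, read a mean of 490.9 ± 27.6 (SD, n = 3) in replicate 1 and 885.2 ± 116.3 (SD, n = 4) in replicate 2, a log2 difference of 0.82 (SE 0.11).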
